A study of Oryza sativa with 32 samples.

Results

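ATP-binding cassette (ABC) transporter loci were taken from the MSUv.7 annotation of the rice reference genome, from the variety Nipponbare. A locus was included when its representative gene model was not marked as a transposable element (TE) and its description held the words "ABC transporter". This gave 58 loci with 72 gene models, among 39049 non-TE loci and 55986 loci in all, or 0.149% of the non-TE loci. The annotation accompanied 32 root RNA-seq libraries, with 4 biological replicates for each of 8 groups. The Al-treated groups, at an Al3+ activity of 80 µM for 4 hours, were IR64 (indica), Azucena (tropical japonica) and the near-isogenic lines IR64[AZU12.1] and AZU[IR64121], written AZU[IR6412.1] in the study's text, and each had a control group grown without Al. In the near-isogenic lines a segment of chromosome 12 had been exchanged between Azucena and IR64 by backcrossing. Only the annotation was analysed here, so the values below describe the loci and not their response to Al, and expression in the libraries was not analysed here. The annotation is a single fixed list without replicates, and no test was run on it. A single locus moves a share of all 58 loci by 1.72 percentage points, and a share of a smaller group of them by more.

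ABC transporters use the energy of ATP to move substrates across membranes. They combine nucleotide-binding domains, which bind and hydrolyse ATP, with transmembrane domains that form the path of the substrate, and plants carry many more of them than animals do. Some proteins hold both kinds of domain in 1 chain, and others are separate subunits that assemble into a transporter. Rice root Al resistance uses both designs. *STAR1* encodes a nucleotide-binding subunit and *STAR2* a transmembrane subunit, and the pair forms a transporter of vesicle membranes in root cells. In *Xenopus* oocytes the pair exported UDP-glucose, and the study's text calls its mechanism in Al resistance unknown. *ALS1* encodes a transporter of the vacuolar membrane that is needed for internal detoxification of Al. These 3 genes depend on ART1, a zinc finger transcription factor of chromosome 12.

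The descriptions divided the 58 loci into 5 kinds. The largest held 38 loci (65.5%) described as ATP-binding protein, the wording used for subunits or domains that bind the nucleotide, and these loci lay on 11 chromosomes. *STAR1* (LOC_Os06g48060) and *ALS1* (LOC_Os03g54790) were both among them, although *STAR1* encodes a nucleotide-binding subunit alone and *ALS1* a protein with its own transmembrane domain. A further 8 loci were described as MDR-like ABC transporters, after the multidrug resistance type, whose plant relatives include auxin transporters. Another 8 carried the general wording ABC transporter family protein. There were 3 loci with a Plant PDR ABC transporter associated domain, a domain of pleiotropic drug resistance proteins, which export hormones and defence compounds in plants. These 3 were LOC_Os01g52560 on chromosome 1, LOC_Os08g43120 on chromosome 8 and LOC_Os12g13720 on chromosome 12. Only 1 locus was described as a membrane-spanning or permease subunit, and it was *STAR2* (LOC_Os05g02750), so that no other member carried its wording.

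The wording of the rule left out other loci with names used for ABC proteins. With wider words, 129 non-TE loci were found, of which 71 did not hold the words "ABC transporter". The largest groups of these were 24 white-brown complex homologs and 21 pleiotropic drug resistance proteins. There were also 12 loci described as ABC-2 type transporters, 6 multidrug resistance proteins, 6 multidrug resistance-associated proteins and 2 members of the ATP-binding cassette sub-family E. The 71 loci had a median length of 6219 bp, and all 71 were marked as expressed. The wider words were not complete either, since LOC_Os05g04600, described as ABC transmembrane transporter domain containing protein, was not among the 129. The 58 loci are therefore the loci that share a wording and not the whole family of rice.

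Every one of the 58 loci was placed on a numbered chromosome, and 11 of the 12 chromosomes held at least 1. Chromosome 1 held 13 of them, or 22.4%, beside 13.0% of all non-TE loci. It was followed by chromosomes 3, 4 and 8 with 7 each, chromosomes 2 and 5 with 6 each and chromosome 6 with 5. Chromosomes 7 and 9 held 1 each, and chromosome 10 held 0 of the 58 among 2292 non-TE loci. Relative to the number of non-TE loci, chromosome 1 had 2.56 and chromosome 8 had 2.54 ABC transporter loci per 1000, against 1.49 per 1000 over the annotation. These 2 chromosomes were close, and chromosome 8 ranked first when loci marked as expressed were counted alone. Chromosomes 1 to 6 together held 44 of the 58 loci (75.9%) and 59.8% of the non-TE loci. This order depended on the wording. With the wider words described above, chromosome 1 had 26 loci, or 5.13 per 1000, and chromosome 9 came next with 11 loci, or 4.87 per 1000, against 3.30 per 1000 over the annotation. Chromosome 8 then had 10 loci (3.62 per 1000), and chromosomes 7 and 10 had 4 each.

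**Figure D1:**
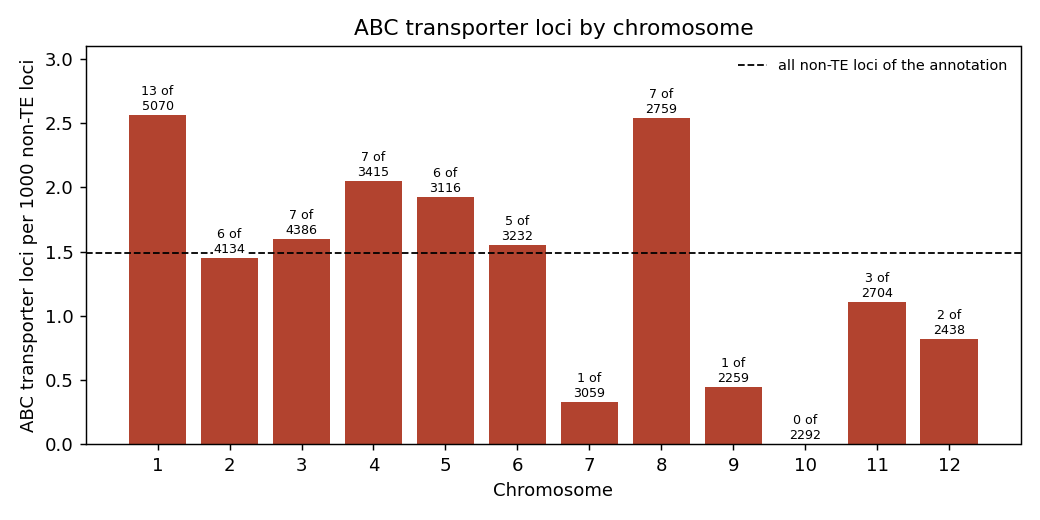
ABC transporter loci per 1000 non-TE loci (vertical axis) on each of the 12 chromosomes (horizontal axis), with the number of ABC transporter loci and of non-TE loci above each bar and a dashed line at 1.49 per 1000, the value over the annotation. Chromosomes 1 and 8 reach 2.56 and 2.54 per 1000, and chromosome 10 has none.

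The kinds were spread unevenly. The 8 MDR-like loci were found on 3 chromosomes, with 5 on chromosome 1, 2 on chromosome 5 and 1 on chromosome 2. The 8 loci described as ABC transporter family protein were on 5 chromosomes, 3 of them on chromosome 4. On chromosome 3, all 7 ABC transporter loci were described as ATP-binding protein, *ALS1* included. The loci were split nearly evenly between the strands, with 30 on plus and 28 on minus, but 6 of the 8 MDR-like loci were on the plus strand.

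ART1 (LOC_Os12g07280) is itself on chromosome 12, in the segment exchanged in the near-isogenic lines. No ABC transporter locus lay within 2 Mb of it, among 477 non-TE loci there, and the wider words found 0 as well. Over the annotation the rates were 1.49 per 1000 non-TE loci and 3.30 with the wider words, so 477 loci would hold few. The ABC transporter loci of that chromosome were LOC_Os12g13720 at 4.15 Mb from ART1 and LOC_Os12g37580 at 19.5 Mb. *STAR1*, *STAR2* and *ALS1* were on chromosomes 6, 5 and 3.

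ABC transporter loci were long. The length of a locus covered all of its gene models, introns included. The 58 loci had a median of 6039 bp, with the middle 50% of them between 4144 and 7473 bp, against a median of 2182 bp for the 38991 other non-TE loci. Of the ABC transporter loci 40 (69.0%) were over 5 kb, against 15.2% of the other non-TE loci. Many of the other loci were annotated only as expressed or hypothetical protein, and without those the median of the remaining 22843 loci was 3025 bp and 21.6% were over 5 kb. Other families of membrane transporters were also shorter. MATE efflux loci, which encode exporters driven by ion gradients and include the citrate transporters of Al resistance, had a median of 4341 bp over 47 loci. The 497 loci described as transporters of other types had a median of 3632 bp. The 350 cytochrome P450 loci, which encode a large family of oxidising enzymes, had a median of 2191 bp.

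Among the ABC transporter loci, length differed with the description. The 3 loci with a Plant PDR domain were 6929 bp (LOC_Os01g52560), 9458 bp (LOC_Os08g43120) and 11776 bp (LOC_Os12g13720), so that none was under 5 kb. The 8 loci described as ABC transporter family protein had a median of 6842 bp and ran from 4800 to 11369 bp. The MDR-like loci had a median of 6241 bp and ran from 4102 to 9030 bp, with 7 of 8 over 5 kb. The 38 ATP-binding loci had a median of 5824 bp and the widest spread, from 2030 to 12388 bp, and 15 of them were at most 5 kb. No ABC transporter locus was between 4800 and 5424 bp long, so the limit of 5 kb fell in a gap of the distribution. The kinds overlapped in length apart from *STAR2*.

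**Figure D2:**
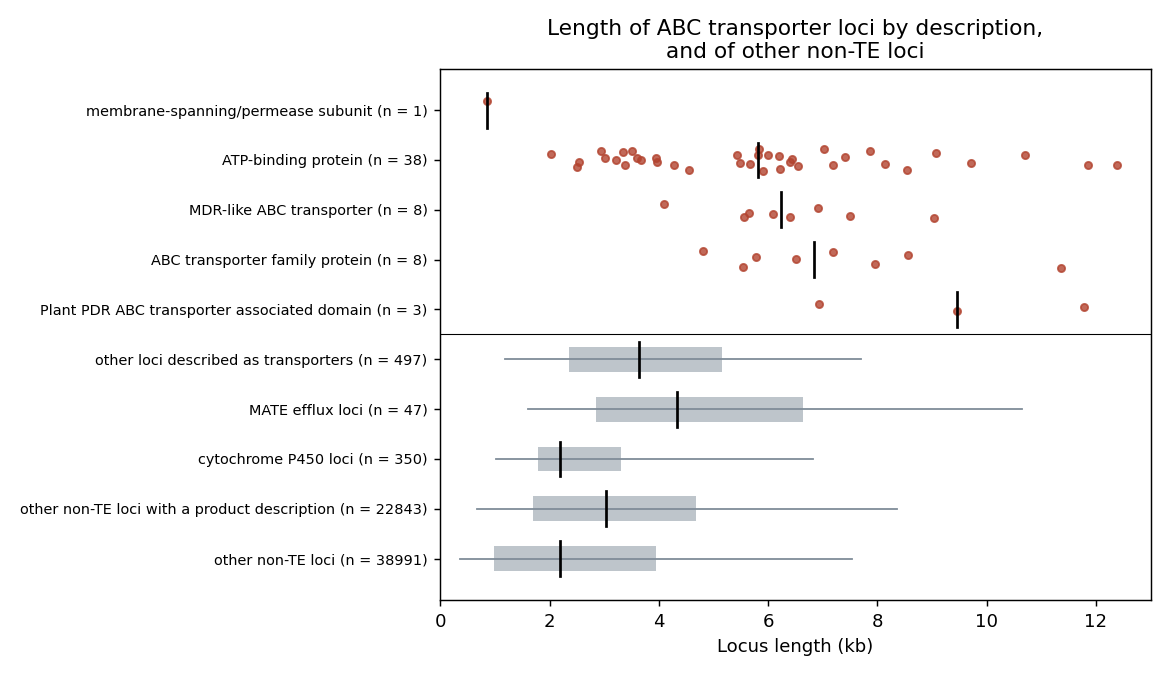
Locus length in kb (horizontal axis) for each ABC transporter locus by description (points, with a black line at the median), and for 5 lists of other non-TE loci (box from the first to the last quartile, black line at the median, thin line from the 5th to the 95th percentile). *STAR2* stands alone at 846 bp, and the medians of the other kinds, between 5824 and 9458 bp, lie above those of all 5 lists, between 2182 and 4341 bp.

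The longest ABC transporter locus was LOC_Os07g28090 at 12388 bp, the only one on chromosome 7, and it was described as ATP-binding protein. LOC_Os01g73530 at 11863 bp carried the same description, and LOC_Os12g13720 at 11776 bp had the Plant PDR domain. At the other end, *STAR2* was 846 bp, shorter than every other member by more than 1 kb. The next shortest were LOC_Os04g56330 at 2030 bp and LOC_Os03g32630 at 2495 bp, both described as ATP-binding protein. *STAR1* was 3682 bp, longer than 11 of the other members. *ALS1* was 5489 bp and longer than 19 of them. Among all non-TE loci, 21.4% were shorter than *STAR2*, 71.9% were shorter than *STAR1* and 87.9% were shorter than *ALS1*. All 3 of these Al resistance loci were therefore below the median of the ABC transporter loci, and *STAR2* was also below that of non-TE loci in general.

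All 58 ABC transporter loci were marked as expressed, against 93.5% of the other non-TE loci. The mark is part of the annotation and does not come from root libraries of this study. It was close to complete wherever a product was described, at 99.1% of the other non-TE loci with a product description and 47 of 47 MATE efflux loci.

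Most ABC transporter loci had a single gene model. Of the 58 loci 11 (19.0%) had more than 1, against 16.0% of the other non-TE loci and 22.1% of those with a product description. The share was 21.3% for MATE efflux loci, 23.3% for other transporters and 8.57% for cytochrome P450 loci. The most models at an ABC transporter locus was 3, at LOC_Os02g58020, LOC_Os05g10730 and LOC_Os09g39910, all described as ATP-binding protein, whereas other non-TE loci had up to 13. *STAR1*, *STAR2* and *ALS1* each had 1 gene model. In every one of the 11 loci the gene models shared 1 description.

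The values parted when length was taken into account. Among loci over 5 kb, 7 of 40 ABC transporter loci (17.5%) had more than 1 gene model, against 1924 of 4928 other non-TE loci with a product description (39.0%). Among loci of at most 5 kb the numbers were 4 of 18 (22.2%) and 3133 of 17915 (17.5%). In the other loci the share with several models was thus higher in the long class. In the ABC transporter loci the shares rested on only 4 and 7 loci, too few to rank the classes. In most of the 11 loci the models had nearly the same ends. The shortest model covered 64.2% of the locus in LOC_Os12g13720 and 76.4% in LOC_Os02g58020, and in LOC_Os01g73530 it had 11264 of 11863 bp. In the other 8 it covered 97.8% or more.

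**Figure D3:**
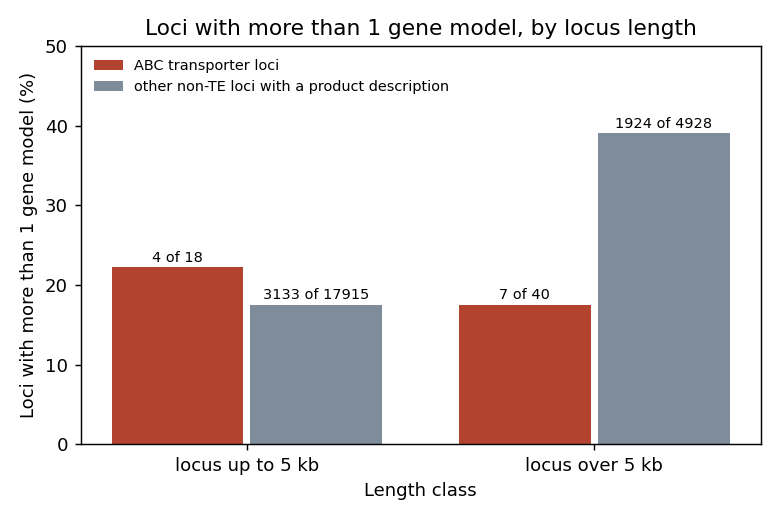
Percentage of loci with more than 1 gene model (vertical axis) in ABC transporter loci and in other non-TE loci with a product description, for loci up to 5 kb and over 5 kb (horizontal axis), with the numbers of loci above the bars. Over 5 kb the bars stand at 17.5% for ABC transporter loci and 39.0% for the other loci.

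Neighbouring loci of 1 family are common in plant genomes, where tandem duplication has expanded many families. Of the 58 ABC transporter loci 16 (27.6%) had another ABC transporter locus within 5 loci, counting all annotated loci in order along the chromosome. The share was 10.3% for adjacent loci alone and 17.2% for loci on the same strand. The 16 loci formed 7 runs, 5 of 2 loci and 2 of 3. The remaining loci were far apart: 0 had their nearest fellow member 6 to 50 loci away, 40 had it more than 50 loci away and 2 were alone on their chromosome. The nearest distance above the limit was 66 loci. MATE efflux loci, a list of like size, had 27.7% within 5 loci and 17.0% at 6 to 50 loci. For cytochrome P450 loci 57.1% were within 5 loci and the longest run had 14 loci. Lists of unlike size meet their own members at unlike rates, and of these only the MATE efflux list is of like size. The 58 loci also leave out loci of other wordings, which these distances do not count. With the wider words, 35.7% of 129 loci had another of them within 5 loci.

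The run of 3 on chromosome 1 joined different kinds. LOC_Os01g50080 (28774281 to 28780365, plus strand) and LOC_Os01g50160 (28825745 to 28832656, plus strand) were MDR-like, and LOC_Os01g50100 (28786109 to 28793300, minus strand) between them was described as ATP-binding protein. The first of these was separated from LOC_Os01g50100 by 5743 bp that held a retrotransposon locus, and LOC_Os01g50100 from LOC_Os01g50160 by 32444 bp with 3 loci, among them a MYB family transcription factor. The lengths of the 3 were 6085, 7192 and 6912 bp. With the wider words 1 more locus joined the run, LOC_Os01g50070, described as multidrug resistance protein 1 and only 451 bp long.

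The run of 3 on chromosome 8 held ATP-binding loci alone. LOC_Os08g30770 (18993288 to 18998958) and LOC_Os08g30780 (19001057 to 19007607) were next to each other on the plus strand with 2098 bp between them. LOC_Os08g30740 (18960124 to 18966338) was on the minus strand, 26949 bp away, and both loci in that space were transposons of the CACTA, En/Spm sub-class. The lengths were 6215, 5671 and 6551 bp in order along the chromosome.

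The 5 pairs were found on chromosomes 1, 2, 5 and 8. The MDR-like loci LOC_Os05g47490 and LOC_Os05g47500 were the closest, adjacent on the plus strand with 1897 bp between them. LOC_Os08g05690 and LOC_Os08g05710, both described as ATP-binding protein, were the most alike in length, at 5906 and 5993 bp, with 5792 bp between them. LOC_Os01g34970 and LOC_Os01g35030, both MDR-like, had 3 short loci described as expressed protein between them. The pair LOC_Os02g18670 and LOC_Os02g18700, both ABC transporter family protein, enclosed a locus with a BURP domain. The pair LOC_Os01g52550 and LOC_Os01g52560 was adjacent but of different kinds, ATP-binding protein and Plant PDR domain, and its loci were placed head to head with 20587 bp between their starts.

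Over the 7 runs there were 9 steps from a locus to the next member. In 5 of them both loci were on the same strand, 3 were head to head and 1 was tail to tail. In 6 of the 9 both loci had the same description, and all 5 steps on the same strand were among these. By kind, 6 of the 8 MDR-like loci were in a run, against 7 of the 38 ATP-binding loci. The 16 loci in runs were between 5655 and 9030 bp long, whereas the 42 others ran from 846 to 12388 bp, and only 1 of the 16 had more than 1 gene model, against 10 of the 42. *STAR1*, *STAR2* and *ALS1* were in no run. The nearest other locus described as ABC transporter was 900 loci away from *STAR1* (LOC_Os06g38950), 101 loci from *STAR2* (LOC_Os05g01700) and 690 loci from *ALS1* (LOC_Os03g46740). Loci of other wordings were not counted in these distances. LOC_Os05g02870, a white-brown complex homolog found by the wider words, began at 1042096 on chromosome 5, nearer to *STAR2* than LOC_Os05g01700.

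**Figure D4:**
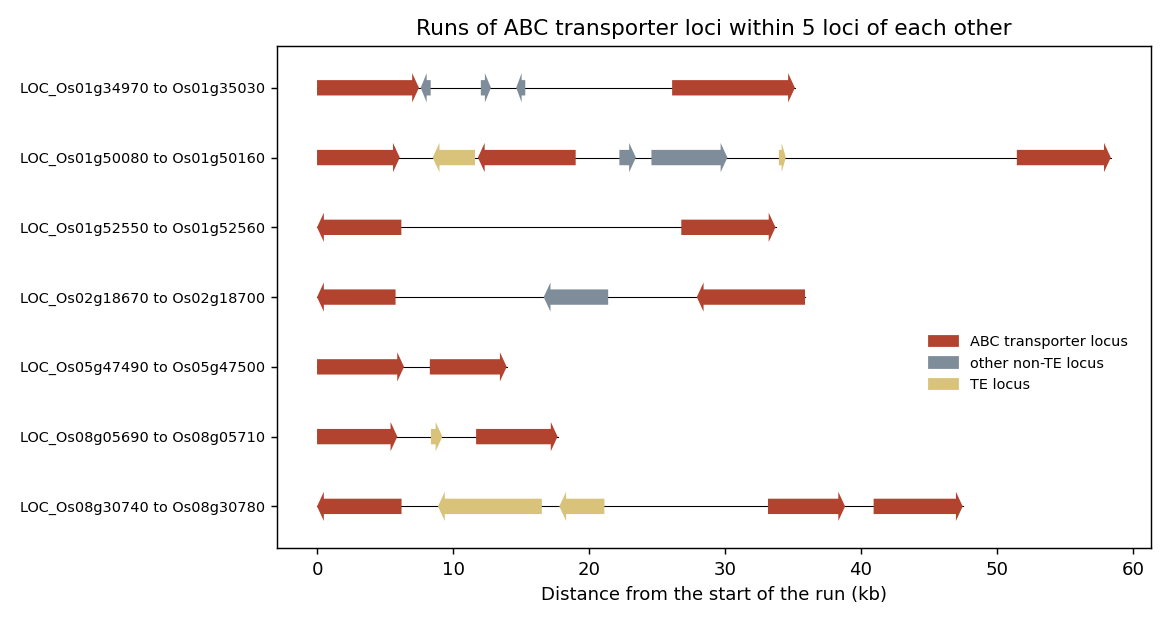
The 7 runs of ABC transporter loci, 1 per row, against the distance from the start of the run in kb, with arrows for loci drawn to scale and pointing along their strand. Loci on the same strand lie close together in LOC_Os05g47490 to LOC_Os05g47500, with 1897 bp between them, and TE loci stand between members in 3 of the runs.

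With the wider words, 5 runs joined ABC transporter loci to loci of another wording, and 20 of the 58 (34.5%) then had a neighbour within 5 loci. These words missed LOC_Os05g04600, described as ABC transmembrane transporter domain containing protein. It stood 2086 bp from LOC_Os05g04610 on the same strand, and LOC_Os05g04610 was not among the 20. On chromosome 4, LOC_Os04g13220 and LOC_Os04g49900, both ABC transporter family protein, each stood next to a multidrug resistance-associated protein on the same strand, LOC_Os04g13210 and LOC_Os04g49890. These proteins belong to a subfamily known for carrying conjugates into the vacuole. LOC_Os12g13720 with its Plant PDR domain stood next to LOC_Os12g13730, described as pleiotropic drug resistance protein 2 and 1002 bp long. LOC_Os08g45010, an ATP-binding locus of 3591 bp, was next to the multidrug resistance protein LOC_Os08g45030 of 5864 bp on the opposite strand.

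The flanks of the loci were compared with respect to TE loci, taking 10 loci on each side. On average 19.3% of the 20 flanking loci of an ABC transporter locus were TE loci, against 23.8% for other non-TE loci, 21.4% for those with a product description and 19.7% for the 497 other transporters. No TE locus was found among the 20 for 9 ABC transporter loci (15.5%), against 7.81% of other non-TE loci and 7.65% of other transporters. MATE efflux loci had 6 of 47 (12.8%) without one, and cytochrome P450 loci 8.29%. Among the 9 ABC transporter loci, LOC_Os01g52550 and LOC_Os01g52560 were adjacent and shared most of their flanking loci. Chromosome was not taken into account, and TE loci made up 21.2% of all loci on chromosome 3 and 39.3% on chromosome 12. *STAR1* had 9 TE loci among its 20 neighbours, *STAR2* had 3 and *ALS1* had 1.

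Regulatory sequence is usually looked for upstream of a gene, and ART1 is known to bind in the *STAR1* promoter. The 2 kb before the representative gene model were free of other loci in 41 of 58 ABC transporter loci (70.7%). The share was 65.1% for other non-TE loci on the 12 chromosomes and 65.6% for those with a product description. It was 68.1% for MATE efflux loci, 71.4% for other transporters and 74.0% for cytochrome P450 loci. In the other 17 ABC transporter loci a part of the window lay inside another locus, from 13 to 1933 bp. The window of *STAR1* was free, with LOC_Os06g48065, the nearest locus on that side, 2321 bp away. The other 2 Al resistance loci were both among the 17, with 1124 bp of the *STAR2* window and 1180 bp of the *ALS1* window inside other loci. The shortest upstream distance that was not an overlap was 67 bp, between LOC_Os03g46740 and LOC_Os03g46750 on the opposite strand.

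*STAR1* (chromosome 6, 29072350 to 29076031, minus strand) was flanked by LOC_Os06g48050, an expressed protein on the plus strand 592 bp from its 3′ end, and by LOC_Os06g48065 upstream, described as a zinc finger protein of the C3HC4 type. Beyond this zinc finger locus came 4 retrotransposon loci in a row. *ALS1* (chromosome 3, 31149795 to 31155283, plus strand) followed LOC_Os03g54780, a kinase of the STE group on the same strand, at 820 bp. On its other side LOC_Os03g54804, a retrotransposon on the minus strand, stood 3155 bp away. *STAR2* (chromosome 5, 989743 to 990588, plus strand) lay wholly inside another locus. LOC_Os05g02754, an expressed protein of 1870 bp on the minus strand, began 345 bp before *STAR2* and ended 679 bp after it. On either side of this pair were LOC_Os05g02740 at 1221 bp and LOC_Os05g02760 at 850 bp from *STAR2*, both described as expressed protein.

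**Figure D5:**
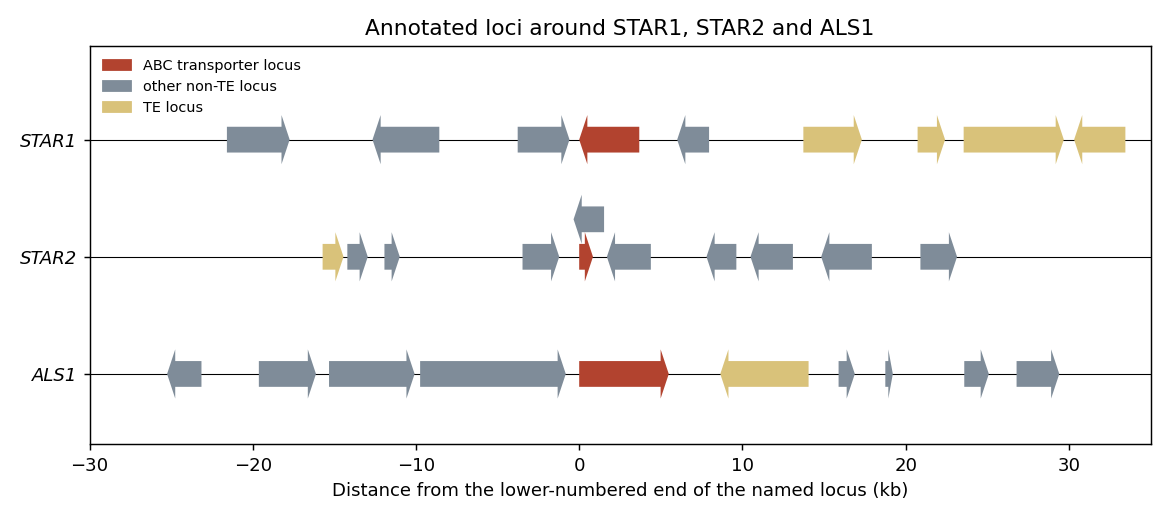
Annotated loci around *STAR1*, *STAR2* and *ALS1*, drawn to scale as arrows along their strand against the distance in kb from the lower-numbered end of the named locus. The locus LOC_Os05g02754, raised above the line, covers all 846 bp of *STAR2* on the opposite strand, and 4 retrotransposon loci follow upstream of *STAR1*.

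Overlap with a locus on the opposite strand was found for 5 of the 58 loci (8.62%), against 3.62% of other non-TE loci and 4.59% of those with a product description. The value was 3 of 47 (6.38%) for MATE efflux loci and 29 of 497 (5.84%) for other transporters. Length was not taken into account here, with medians of 6039 bp for ABC transporter loci and 2182 bp for other non-TE loci. *STAR2* was the only one of the 5 to lie wholly inside its partner, an arrangement found for 103 (0.264%) of the other non-TE loci. The other 4 overlapped at their 3′ ends. LOC_Os05g10730 shared 1626 bp with LOC_Os05g10740, described as the pollen-specific protein SF21. LOC_Os08g30740 shared 973 bp with LOC_Os08g30730, a holocarboxylase synthetase. LOC_Os01g52550 shared 654 bp with LOC_Os01g52540, which has a B3 DNA binding domain, and LOC_Os06g06440 shared 642 bp with LOC_Os06g06430, an expressed protein. Where reads are counted without regard to strand, reads from the shared positions cannot be assigned to 1 of the partners, which for *STAR2* covers the whole locus. The libraries were made strand-specific according to the study's methods, and how their reads were assigned at these positions was not tested.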

How the data were processed

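Roots of 4 rice genotypes were sampled with and without Al, which gave 32 RNA-seq libraries. According to the study's methods, the authors aligned the reads with HISAT to MSUv.7 and counted them per gene. The deposited file analysed here is that annotation. Its values are start and stop positions in bp, and 0 columns hold values of a single library. No expression comparison or test was therefore run, and the libraries were not grouped.

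A locus spanned all of its gene models, took its description and TE mark from the representative model, and counted as expressed when any of its models was so marked. Order along a chromosome was by start. Loci in a run were each within 5 loci of the next. Upstream windows of 2000 bp were placed by strand. The functions were tested on simulated data. The members, the lists and the genes named were chosen with earlier results of these data known. Named were the Al resistance loci with their neighbours, the permease subunit, runs of 3, the 3 longest and 3 shortest loci, those with most gene models, overlaps on the opposite strand and descriptions held by 1 locus. The loci of pairs and mixed runs, the limit of 5 kb, the flanks of 10 loci, the distance classes and the group with a product description were chosen after the values were seen. The RefSeq table, of assembly ASM3414082v1, holds none of the 55986 locus identifiers and was used for no name or position. *STAR1*, *STAR2* and *ALS1* were tied to their loci by the study's own gene list. No sequence was printed, since neither the file nor the reference table holds one. Scripts ran under Python 3.11.15 (matplotlib 3.10.9, pandas 2.3.3, numpy 2.4.6, scipy 1.17.1).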

Additional observations from a re-analysis of the deposited data

How the results depend on the processing

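The 10 values were recomputed under 30 alternatives, 26 planned and 4 chosen after seeing the data. Of these 23 stayed within 1.5 times a count or within the 95% exact binomial interval of a share or median, and 7 moved. The number of loci was 129 with the wider words. The share with another ABC transporter locus nearby was 10.3% for adjacent loci alone. The share of free upstream windows was 89.7% at 1 kb. The median of other non-TE loci was 3025 bp with a product description and 2575 bp with a description and 1 gene model. Their share with more than 1 gene model was 22.1% with a product description and 39.0% with a description and over 5 kb. The share within 5 loci was the same at 10 loci, within 50 kb and with TE loci left out of the distance (27.6% each), and was 17.2% on the same strand. The interval of this share over 58 loci was 16.7% to 40.9%, and that of the median over 38991 other loci was 2154 to 2209 bp. Whether a value stayed or moved thus depended on the length of the list as well as on the change. The search for the Walker A motif was not run, since no protein sequence was used here. No paired analysis was possible because no value belongs to a library. For the same reason no replicate could be left out, and no depth limits these values.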
